A study of Mus musculus with 10 samples.

Results

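The genes described here are 10 transcriptional feedback genes of the ERK kinase pathway, read in brain microglia of mice given an inhibitor of the CSF1R kinase. They were chosen by name as genes that ERK signalling induces, and were matched through their NCBI gene ids. They comprise 3 phosphatases of ERK (Dusp4, Dusp5 and Dusp6), 3 Sprouty genes (Spry1, Spry2 and Spry4), 2 Spred genes (Spred1 and Spred2), the transcription factor Etv5 and cyclin D1 (Ccnd1). All 10 had counts, and all 10 passed the filter on low values, out of 46152 genes counted and 28419 tested.

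CSF1R is the receptor tyrosine kinase that microglia need for survival and proliferation, and CSF1 and IL-34 are its ligands. The active receptor recruits adaptors such as Grb2 with the exchange factor Sos1, which load Ras, and the signal then passes through Raf and MEK kinases to ERK. ERK in turn induces its own brakes. Dusp phosphatases remove phosphate from ERK, Sprouty proteins interfere upstream of it, and Spred proteins bring neurofibromin to Ras. The mRNA of these genes is used in other systems as a readout of ERK output, and the comparison of vehicle with inhibitor asks whether that readout differed in these cells.

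The groups were 5 C57BL/6J mice given Vehicle (0.1% Tween 80 with 0.5% hydroxymethyl propyl-cellulose) and 5 given GW2580, an orally available CSF1R kinase inhibitor, at 80 mg/kg/d in the same carrier by gavage for 8 days. The mice were 8 to 12 weeks old. Males numbered 2 and females 3 in each group. A library stands for a single mouse, and libraries are referred to as Vehicle 1 to 5 and GW2580 1 to 5. Cells were taken from brain by positive selection for CD11b, a surface protein that monocytes, granulocytes and border macrophages also carry. The drug was given to the whole animal, so the cells were not the only ones exposed. Block of the kinase in these cells was not measured in these data. The paper calls GW2580 non-penetrant in its abstract and brain penetrant in its introduction.

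Between 12550418 and 20854218 fragments were counted on genes in the Vehicle libraries and between 13228819 and 26079343 in the GW2580 libraries. The microglial markers Selplg and Tmem119 were high in each library, with Tmem119 between 2710 and 4264 CPM with Vehicle and between 3403 and 12451 CPM with GW2580. CPM here are counts scaled to library size with TMM factors. These factors ran from 0.856 to 0.975 with Vehicle. With GW2580 they ran from 0.691 in GW2580 3 to 1.61 in GW2580 4. A low factor raises the CPM of its library and a high factor lowers them. Aif1, which encodes the microglial protein Iba-1, was listed at 0 in all 10 libraries, and Trem2 reached 0.0556 CPM at most, so these values are not read as levels in microglia. The libraries did not sort cleanly by treatment. On the first principal component of 7580 genes, which held 47.1% of the variance, Vehicle 1 to 4 lay between -40.5 and -35.0 and Vehicle 5 at 77.9. GW2580 1, 3 and 4 lay between 37.8 and 46.4, GW2580 2 at -5.20, and GW2580 5 at -45.8, beside the 4 Vehicle libraries. Results are therefore also given without these libraries.

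Promoters of 7 of the 10 genes were found in the RefSeq promoter table (GRCm38.p6), each running from 250 bases before to 50 bases after the start of transcription. Of these, 4 are shown. Etv5, Spred1 and Dusp6 had the largest differences between the groups, and Dusp5 carries a pair of CArG boxes, the motif bound by serum response factor, which acts with ETS factors that ERK phosphorylates. Capitals mark the CArG boxes.

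Etv5, chr16:22439521-22439820, minus strand: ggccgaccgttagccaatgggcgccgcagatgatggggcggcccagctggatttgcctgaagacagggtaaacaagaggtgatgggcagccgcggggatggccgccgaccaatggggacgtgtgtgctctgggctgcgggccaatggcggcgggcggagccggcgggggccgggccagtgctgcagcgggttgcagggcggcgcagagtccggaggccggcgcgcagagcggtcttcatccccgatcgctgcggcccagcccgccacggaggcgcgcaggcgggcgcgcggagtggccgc

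Spred1, chr2:117120821-117121120, plus strand: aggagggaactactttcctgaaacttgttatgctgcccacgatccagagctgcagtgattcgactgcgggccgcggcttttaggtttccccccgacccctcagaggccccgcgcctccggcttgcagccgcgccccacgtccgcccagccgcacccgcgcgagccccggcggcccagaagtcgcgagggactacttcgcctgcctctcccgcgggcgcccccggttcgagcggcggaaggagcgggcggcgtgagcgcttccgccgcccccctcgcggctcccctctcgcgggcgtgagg

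Dusp6, chr10:99262981-99263280, plus strand: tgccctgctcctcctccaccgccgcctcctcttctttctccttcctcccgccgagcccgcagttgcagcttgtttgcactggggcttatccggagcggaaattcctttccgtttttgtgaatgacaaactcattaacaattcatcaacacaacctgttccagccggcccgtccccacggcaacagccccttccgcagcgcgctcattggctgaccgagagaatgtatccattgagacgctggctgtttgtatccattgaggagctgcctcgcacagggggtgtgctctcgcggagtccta

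Dusp5, chr19:53528895-53529194, plus strand: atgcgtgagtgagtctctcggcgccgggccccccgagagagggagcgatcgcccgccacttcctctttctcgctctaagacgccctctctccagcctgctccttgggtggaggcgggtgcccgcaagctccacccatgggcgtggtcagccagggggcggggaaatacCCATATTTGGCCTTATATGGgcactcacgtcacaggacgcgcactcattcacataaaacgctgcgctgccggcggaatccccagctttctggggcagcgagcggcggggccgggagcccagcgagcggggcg

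In Dusp5 the boxes begin 82 and 72 bases before the start and directly follow each other. A CArG box was present in 1.63% of 32851 promoters in the table. This motif was searched after the sequences had been seen, whereas 4 others were searched on both strands in all 8 promoters of the 7 genes (Etv5 has 2). The ETS motif CCGGAA, held by 14.9% of all promoters, was found in Spry2 alone, 33 bases after the start. The cyclic AMP response motif TGACGTC, held by 3.21%, was found in Spred2 alone, on the opposite strand 53 bases before the start. The AP-1 motif TGANTCA (7.81% of promoters) and TATAAA (13.6%) were found in none of the 8. The 8 promoters were 57.0 to 74.0% G or C, against a median of 52.7% over all promoters.

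Compared per length of exon, the 10 genes spanned a wide range of levels with Vehicle. Dusp6, the cytoplasmic ERK phosphatase, stood highest at a mean of 112 RPKM (fragments scaled to exon length and to library size), followed by Spry1 at 16.4, Dusp5 at 14.7, Etv5 at 14.4, Ccnd1 at 12.8 and Spred1 at 4.00 RPKM. Spred2 at 1.57, Dusp4 at 1.24, Spry2 at 1.21 and Spry4 at 0.768 RPKM were the lowest. Dusp6 lay above Spry1, and Spred1 above Spred2, in 5 of 5 Vehicle libraries. The order of Spred1 and Spred2 rests on the annotated exon length, which is 7087 bases for Spred1 and 33833 for Spred2. In CPM, which are not scaled to length, Spred2 had the higher mean with Vehicle (53.0 against 28.3). The order of the close neighbours did not hold library by library, since Dusp5 exceeded Etv5 in 1 of 5, Etv5 exceeded Ccnd1 in 2 of 5, and Dusp4 exceeded Spry2 in 2 of 5. The means of Dusp5 and Spry1 were raised by Vehicle 5. With GW2580 the order was Dusp6 at 208 RPKM, Etv5 at 30.5, Ccnd1 at 20.9, Spry1 at 18.4, Dusp5 at 16.3 and Spred1 at 7.53 RPKM, with Spred2 at 2.02, Dusp4 at 1.21, Spry4 at 0.970 and Spry2 at 0.906 RPKM at the low end. Levels of Dusp6 and Ccnd1 are uncertain, because 22.4% of the exon bases of Dusp6 are shared with Gm34921 and 21.1% of those of Ccnd1 with LTO1, each on the opposite strand, and the counting ignored strand and left out fragments that touched both genes. The other 8 genes share no exon base with another gene.

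None of the 10 feedback genes fell in the mice given the kinase inhibitor at the thresholds of the study, a fold change over 2 with an unadjusted p under 0.05. Etv5 was the single gene called, and it was higher with GW2580. The 10 genes thus gave 1 call higher and 0 lower, where 4.01% of all tested genes were called higher and 6.7% lower. With 10 genes, neither count is far from what those shares give. Etv5 and Spred1 had an unadjusted p under 0.05, both higher, against 6.61% of all genes in that direction and 8.12% in the other. The groups overlapped in each of the 10 genes, whereas 2.04% of all genes had each GW2580 library above each Vehicle library and 0.985% the reverse. After Benjamini-Hochberg adjustment over all 28419 genes none of the 10 passed 0.05 by edgeR's quasi-likelihood test, nor did any gene (0%), with 4186 genes under an unadjusted p of 0.05. DESeq2 gave 177 genes under an adjusted p of 0.05 and the likelihood ratio and exact tests of edgeR gave 53 and 28, with 0 of the 10 among them in each case. The log2 fold change was above 0 in 8 of the 10 genes, against 48.4% of all genes, with a median of 0.35 against -0.03. Of the lists described below, it was above 0 in 12 of 13 tested microglial markers and 11 of 13 dissociation response genes. It was above 0 in 6 of 13 paralogs and 9 of 17 other genes that ERK induces. In bulk RNA, fewer cells of a type and less RNA per cell cannot be told apart.

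**Figure D1:**
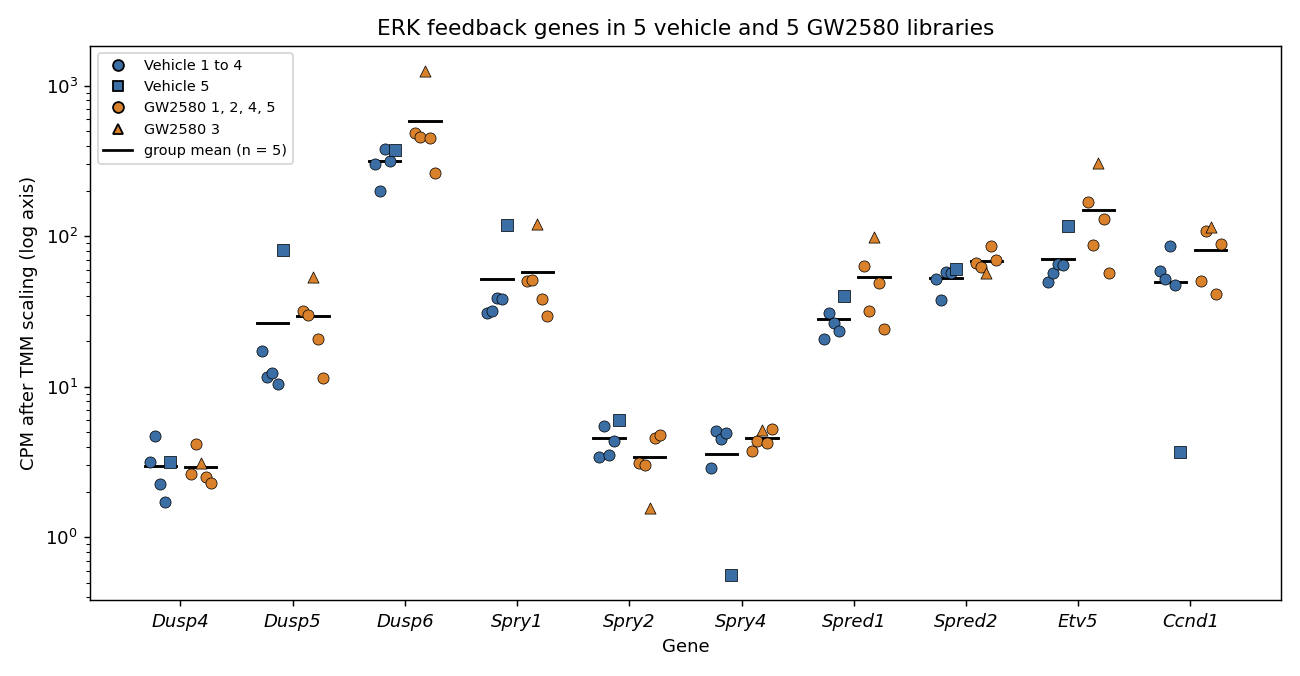
Level of each ERK feedback gene in CPM after TMM scaling (vertical log axis) in 5 Vehicle and 5 GW2580 libraries, with 1 point per mouse and black bars for group means. Vehicle 5 stands far above the other Vehicle libraries for Dusp5 and Spry1 and far below them for Spry4 and Ccnd1, while GW2580 3 is the highest library for Dusp6, Spred1 and Etv5.

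Etv5 (gene id 104156, chr16:22381313-22439570) encodes an ETS transcription factor induced by receptor tyrosine kinase signalling. Its levels with Vehicle were 49.3, 56.6, 65.3, 64.6 and 117 CPM in replicates 1 to 5, and with GW2580 they were 169, 87.8, 306, 131 and 56.9 CPM. GW2580 1, 3 and 4 lay above each Vehicle library, GW2580 2 lay within their range, and GW2580 5 lay among the lowest, so the groups overlapped. Mean levels were 70.6 ± 26.8 and 150 ± 97.0 CPM (SD, n = 5 each), a 2.13-fold difference or 1.09 ± 0.44 (SE) on the log2 scale (unadjusted p = 0.0275, adjusted p = 0.298 by edgeR's quasi-likelihood test). The two-sided exact permutation test of this gene alone, whose smallest possible value is 0.00794, gave p = 0.0714.

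The call for Etv5 turned on single libraries. Without GW2580 3 the log2 fold change was 0.66 (unadjusted p = 0.107 by edgeR), and without Vehicle 1, 2, 3 or 4 it was 0.98, 1.01, 1.06 and 1.06, with unadjusted p between 0.0533 and 0.0644. Without Vehicle 5 it was 1.35 (unadjusted p = 0.00745 by edgeR). The difference was above 0 in each of these refits.

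The Spred genes encode inhibitors that act at Ras. Spred1 (gene id 114715, chr2:117121071-117182279) measured 20.7, 30.9, 26.6, 23.3 and 40.1 CPM with Vehicle and 63.2, 31.7, 98.8, 48.8 and 24.4 CPM with GW2580. As for Etv5, GW2580 1, 3 and 4 lay above each Vehicle library and GW2580 5 lay low. Its means were 28.3 ± 7.61 and 53.4 ± 29.5 CPM (SD, n = 5 each), a log2 fold change of 0.91 ± 0.39 (SE), which is under the 2-fold threshold (unadjusted p = 0.0330, adjusted p = 0.306 by edgeR, exact permutation p = 0.0794). Without Vehicle 5 its log2 fold change was 1.07 (unadjusted p = 0.0131 by edgeR) and passed both thresholds, whereas without GW2580 3 it was 0.57 (unadjusted p = 0.116).

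Spred2 (gene id 114716, chr11:19924442-20024026) varied little among the mice. Its levels with Vehicle were 51.9, 37.7, 57.5, 57.2 and 60.9 CPM, and those with GW2580 were 66.0, 62.9, 57.1, 85.7 and 69.7 CPM. All GW2580 libraries but replicate 3 lay above each Vehicle library. GW2580 3, in which its paralog Spred1 peaked after TMM scaling, was the lowest of its group for Spred2. The means were 53.0 ± 9.18 and 68.3 ± 10.8 CPM (SD, n = 5 each), a 1.29-fold difference (log2 0.36 ± 0.27 SE, unadjusted p = 0.205 and adjusted p = 0.538 by edgeR). The exact permutation test, which uses this gene's own spread, gave p = 0.0317, unadjusted and the lowest of the 10 genes.

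The Dusp genes encode dual-specificity phosphatases, of which Dusp4 and Dusp5 act in the nucleus. Dusp6 (gene id 67603, chr10:99263231-99267489) measured 302, 200, 381, 314 and 373 CPM with Vehicle and 484, 458, 1249, 450 and 265 CPM with GW2580. All GW2580 libraries but replicate 5 lay above each Vehicle library. The means were 314 ± 72.4 and 581 ± 383 CPM (SD, n = 5 each), a log2 fold change of 0.89 ± 0.43 (SE; unadjusted p = 0.0566, adjusted p = 0.349 by edgeR, exact permutation p = 0.0635). After TMM scaling, GW2580 3 alone set much of this size. Without it the mean with GW2580 was 414 ± 101 CPM (n = 4) and the log2 fold change 0.40 (unadjusted p = 0.222 by edgeR). The TMM factor of GW2580 3 was the lowest of the 10 libraries. With library size alone and all 10 libraries, the log2 fold change of Dusp6 was 0.998 (unadjusted p = 0.00700 by edgeR).

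Dusp5 (gene id 240672, chr19:53529145-53541809) was far higher in Vehicle 5 than in the other Vehicle mice. The first 4 Vehicle replicates measured 17.4, 11.5, 12.4 and 10.4 CPM and Vehicle 5 measured 81.4 CPM, while the GW2580 libraries measured 32.1, 30.05, 53.8, 20.8 and 11.4 CPM. With all 10 libraries the means were 26.6 ± 30.7 and 29.6 ± 15.8 CPM (SD, n = 5 each) and the log2 fold change 0.15 ± 0.59 (SE; unadjusted p = 0.799, adjusted p = 0.922 by edgeR, exact permutation p = 0.857). Without Vehicle 5 the Vehicle mean was 12.9 ± 3.09 CPM (n = 4), GW2580 1 to 4 each lay above the remaining Vehicle libraries, and the log2 fold change was 1.20 (unadjusted p = 0.00669, adjusted p = 0.163 by edgeR). Without GW2580 3 it was -0.17.

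Dusp4 (gene id 319520, chr8:34807610-34819894) was near the detection limit, with 27 to 67 fragments per library. It measured 3.18, 4.69, 2.26, 1.72 and 3.15 CPM with Vehicle and 2.62, 4.15, 3.11, 2.51 and 2.30 CPM with GW2580. The GW2580 libraries all lay within the range of the Vehicle libraries, and the log2 fold change was -0.03 ± 0.35 (SE; unadjusted p = 0.934, adjusted p = 0.976 by edgeR, exact permutation p = 0.937). Its sign depended on the scaling, and was above 0 with library size alone (0.21).

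The Sprouty genes did not move as a family. Spry1 (gene id 24063, chr3:37639947-37644599) measured 30.9, 31.9, 38.9, 38.5 and 118 CPM with Vehicle and 50.1, 51.3, 121, 38.01 and 29.7 CPM with GW2580. One library of each group, Vehicle 5 and GW2580 3, stood at about the same high level, and the remaining 8 lay between 29.7 and 51.3 CPM. The means were 51.7 ± 37.3 and 58.1 ± 36.5 CPM (SD, n = 5 each), a log2 fold change of 0.17 ± 0.47 (SE; unadjusted p = 0.727, adjusted p = 0.888 by edgeR, exact permutation p = 0.563). It was 0.73 without Vehicle 5 and -0.29 without GW2580 3.

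Spry2 (gene id 24064, chr14:105891947-105896819) was the feedback gene with the lowest fold change. It measured 3.39, 5.46, 3.51, 4.36 and 6.01 CPM with Vehicle and 3.13, 3.03, 1.56, 4.54 and 4.81 CPM with GW2580, and GW2580 1, 2 and 3 lay below each Vehicle library. The means were 4.55 ± 1.16 and 3.41 ± 1.31 CPM (SD, n = 5 each) and the log2 fold change -0.41 ± 0.35 (SE; unadjusted p = 0.257, adjusted p = 0.584 by edgeR, exact permutation p = 0.183). It was -0.23 without GW2580 3, -0.11 without GW2580 3 and Vehicle 5, and -0.04 with library size alone. These values rest on 28 to 107 fragments per library.

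Spry4 (gene id 24066, chr18:38586247-38601347) was low and even in 9 libraries. With Vehicle it measured 2.89, 5.11, 4.51, 4.94 and 0.56 CPM, the last from 10 fragments in Vehicle 5, and with GW2580 it measured 3.75, 4.35, 5.17, 4.26 and 5.21 CPM. The log2 fold change was 0.34 ± 0.45 (SE; unadjusted p = 0.464, adjusted p = 0.739 by edgeR, exact permutation p = 0.349) and was 0.06 without Vehicle 5.

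Ccnd1 (gene id 12443, chr7:144929931-144939831) encodes cyclin D1, which activates CDK4 and CDK6 for entry into the cell cycle. It measured 58.5, 52.1, 85.9, 47.2 and 3.71 CPM with Vehicle and 50.5, 109, 115, 41.4 and 89.4 CPM with GW2580. Vehicle 5 was the lowest by a wide margin, and GW2580 2, 3 and 5 lay above each Vehicle library. The means were 49.5 ± 29.6 and 81.1 ± 33.6 CPM (SD, n = 5 each), a log2 fold change of 0.71 ± 0.58 (SE; unadjusted p = 0.237, adjusted p = 0.567 by edgeR, exact permutation p = 0.167). Without Vehicle 5 it was 0.41 (unadjusted p = 0.273). Ccnd1 was one of the few feedback genes in which GW2580 5 stood above all Vehicle libraries, as it did for Spry4 and Spred2.

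**Figure D2:**
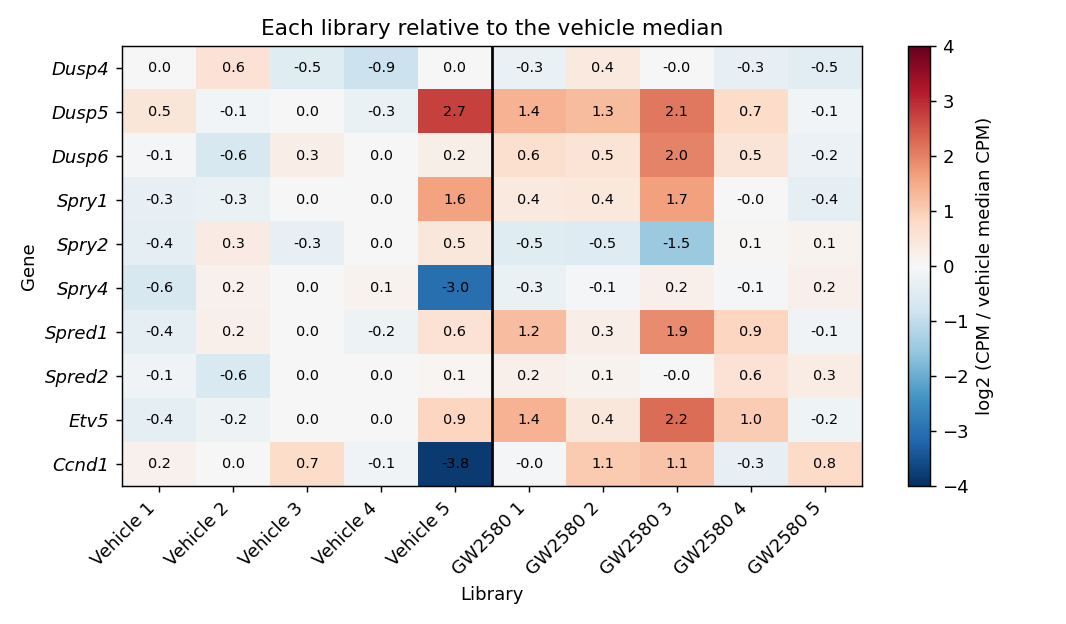
Level of each gene in each library relative to the median of the 5 Vehicle libraries, as log2 ratios written in the cells (red above, blue below), with the line dividing Vehicle from GW2580. GW2580 3 is at least 2-fold above that median in 6 genes and Vehicle 5 in 2, and Vehicle 5 is at least 2-fold below it in 2.

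The map of log2 ratios, made from CPM after TMM scaling, shows that the large departures sat in few libraries. How far this rests on the TMM factors was not tested. GW2580 3 was at least 2-fold above the Vehicle median in 6 genes and at least 2-fold below it in 1, and was the highest of all 10 libraries in 5. GW2580 1, 2, 4 and 5 were at least 2-fold above it in 3, 2, 1 and 0 genes and at least 2-fold below it in 0. Vehicle 1 to 4 had 0 genes at least 2-fold away from the median. GW2580 3 also had the highest summed level of the 15 microglial markers, 74579 CPM, where the other GW2580 libraries had between 22622 and 41716 and the Vehicle libraries between 16843 (Vehicle 5) and 35080 CPM. It had the lowest share of counting records on no exon of its group (38.7%, against up to 60.1% in GW2580 4). With that percent as a covariate, 3 feedback genes were called higher (Dusp6, Spred1 and Etv5), where 2.48% of all genes were, with Etv5 at a log2 fold change of 1.34 and none of the 10 past an adjusted p of 0.05 by edgeR. Beyond that fit, the part of these values in the levels of the feedback genes was not tested.

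Some pairs of the genes varied together from mouse to mouse. After the group means were taken out, Pearson's r across the 10 libraries was 0.96 for Spred1 with Etv5, 0.92 for Dusp5 with Spry1, 0.86 for Spry1 with Etv5 and 0.85 for Dusp6 with Etv5. Without Vehicle 5 and GW2580 3 (n = 8) these were 0.92, 0.69, 0.67 and 0.67. Dusp6 with Spred1 went from 0.75 to 0.39 and Spry1 with Spred1 from 0.77 to 0.48, whereas Dusp6 with Spry1 hardly moved (0.78 and 0.77). Spry4 and Ccnd1 had an r of 0.91 with all 10 libraries and of 0.16 without those 2, so their likeness rested on those libraries. In the opposite direction stood Dusp5 with Spry4 (-0.83, and -0.74 without the 2 libraries) and Dusp6 with Spry2 (-0.80 and -0.77). These correlations are descriptions over libraries that share 1 scaling, and the low counts of Spry2 and Spry4 limit theirs. Among 10929 other genes with a mean of at least 10 CPM, the patterns most like that of Etv5 (Pearson's r of log2 CPM over the 10 libraries) were those of Numb (r = 0.994), Spg20 (0.993) and Dtx4 (0.992). Those most like Dusp6 were Snx29 (0.983), Capn3 (0.982) and Lpcat1 (0.981), and those most like Spred2 were Dnmt3b (0.924), Banf2os (0.919) and Piezo2 (0.918).

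The number of feedback genes called higher moved between 0 and 4 with the libraries used, and the number called lower was 0 each time. Without Vehicle 5 it was 3 (Dusp5, Spred1 and Etv5), where 6.18% of all genes were called higher. Without GW2580 3 it was 0, where 3.54% were. Without both it was 0 (4.6%). Etv5 then had a log2 fold change of 0.92, Dusp5 of 0.87 and Spred1 of 0.73. Each had an unadjusted p under 0.05 by edgeR, as had 3138 of all 28017 genes tested in that fit, in the same direction. Vehicle 5 and GW2580 5 each lay nearer to libraries of the opposite treatment on the first principal component. Without this pair the number of feedback genes called higher was 4 (7.08% of all genes). Dusp5, Spred1 and Etv5 then passed an adjusted p of 0.05 (0.0147, 0.0277 and 0.0175 by edgeR), as did 17.8% of all genes. GW2580 5 and Vehicle 5 were left out for where they lay, so this last count is a description of the remaining 8 libraries.

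**Figure D3:**
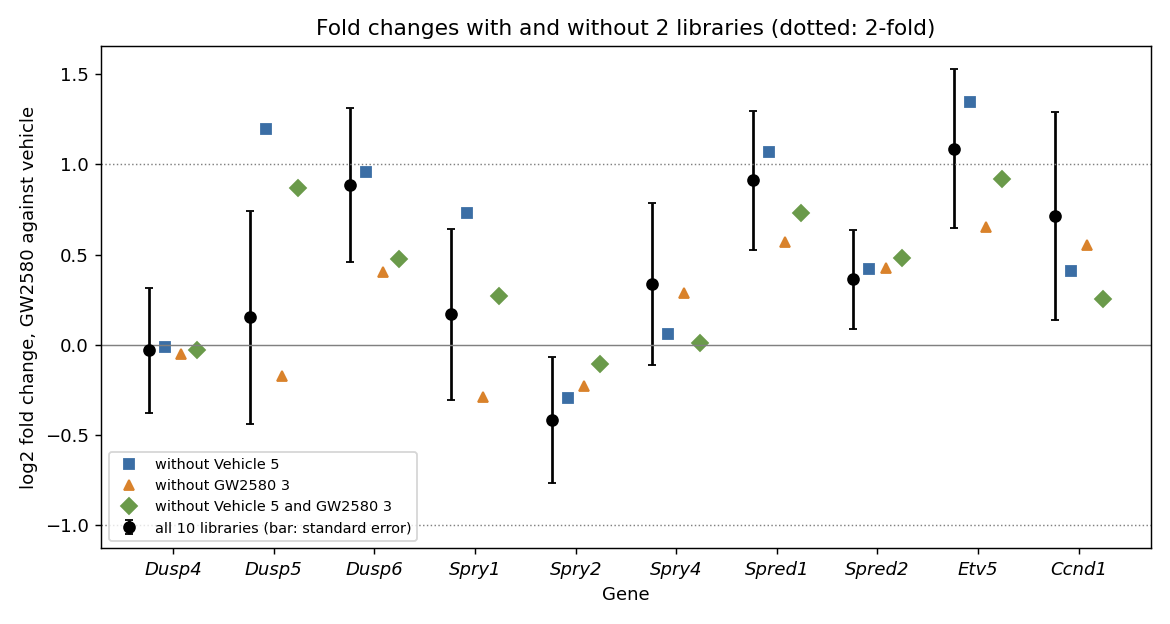
Log2 fold change of each gene, GW2580 against Vehicle (vertical axis), from all 10 libraries with its standard error (black) and without Vehicle 5 (blue squares), GW2580 3 (orange triangles) or both (green diamonds). Etv5 and Spred1 are above 0 in all 4 fits, Dusp5 moves from -0.17 to 1.20, and Dusp4 lies at about 0 in all 4.

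The plot of fold changes by fit separates genes whose value rested on 1 library from those whose value did not. Spred2 lay at 0.36 with all libraries, 0.42 without Vehicle 5, 0.42 without GW2580 3 and 0.48 without both. Dusp6 lay at 0.89, 0.96, 0.40 and 0.47 in the same order. Ccnd1 lay at 0.71, 0.41, 0.55 and 0.25.

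Male and female mice did not give detectably different effects at this number of animals. For Etv5 the log2 fold change was 1.19 in males and 1.02 in females (interaction, unadjusted p = 0.774 by edgeR). The lowest interaction p of the 10 genes was that of Dusp5, 0.274, with 1.01 in males and -0.24 in females, where Vehicle 5 was a female mouse. Of all genes, 2.52% had an unadjusted interaction p under 0.05. No lane, date or preparation that divides the groups is given in the labels.

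Upstream of the feedback genes, the receptor itself had a higher mean with GW2580, with overlap between the groups (exact permutation p = 0.0794). The paper describes Csf1r as a trend short of statistical significance. Csf1r was at 1805 to 5324 CPM with Vehicle and at 2108 to 14653 CPM with GW2580 (log2 fold change 1.28 ± 0.56 SE, unadjusted p = 0.0394, adjusted p = 0.318 by edgeR), highest in GW2580 3 as Etv5 and Dusp6 were. Its ligand Csf1 had a log2 fold change of 0.70 (unadjusted p = 0.0463 by edgeR). Il34, at 16.8 CPM in Vehicle 5 and 4.88 CPM or less in the other 9 libraries, had one of -1.24 (unadjusted p = 0.0420 by edgeR). Csf1r and Il34 thus passed the thresholds of the study here and Csf1 did not. The paper instead reports Csf1 as upregulated and Il34 as low and not different.

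Of 22 genes of the cascade from the adaptors to ERK and its kinase targets, all 22 were tested and 16 had a log2 fold change above 0, with a median of 0.22. Rps6ka1, a kinase that ERK activates and the most abundant of the list, had a higher mean with GW2580 (1.02 ± 0.44 SE, unadjusted p = 0.0343, adjusted p = 0.309 by edgeR). Its groups overlapped (exact permutation p = 0.0794), with 1426 CPM in GW2580 3 and 265 CPM in GW2580 5, below each Vehicle library. Ptpn11, the phosphatase SHP2 that promotes Ras activation, fell by 1.39 on the log2 scale (unadjusted p = 0.00562, adjusted p = 0.280), and Hras fell by 1.15 (unadjusted p = 0.0157, adjusted p = 0.280). Ptpn11 was highest in Vehicle 2 (176 CPM) and Vehicle 5 (101 CPM), the libraries with the highest sums of astrocyte and oligodendrocyte markers, and 59.4 CPM or less in the other 3 Vehicle libraries. Hras was likewise highest in those 2 libraries, at 119 and 73.9 CPM. The kinases of ERK were not called, with Map2k1 at 0.71 and Map2k2 at -0.12 on the log2 scale.

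Paralogs of the feedback genes gave 0 called higher and 1 lower of 13 tested, with a median of -0.04. The lower one was Ccnd2, another D-type cyclin (-1.18, unadjusted p = 0.0411, adjusted p = 0.323 by edgeR), which stood at 216 CPM in Vehicle 5 and between 28.2 and 75.1 CPM in the other 9 libraries. Dusp1, the most abundant phosphatase of the family, measured 3067 to 4792 CPM with Vehicle and 2503 to 8444 CPM with GW2580 and was not called (0.23, unadjusted p = 0.615), nor were Dusp2 (-0.04) and Ccnd3 (-0.79). Of 18 other genes that ERK induces, mostly early response genes, 17 were tested and none was called in either direction, with a median of 0.01. The most abundant were Junb (0.46), Fos (0.20) and Egr1 (0.74, unadjusted p = 0.121).

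Many early response genes also rise when tissue is dissociated, and their levels were very high in these cells. Of 16 such genes 13 were tested and 0 were called, with a median log2 fold change of 0.27, and 2 (Hspa1a and Hspa1b) were listed at 0 in all libraries. Their summed level was 32435 to 49467 CPM with Vehicle and 29096 to 94702 CPM with GW2580, with Jun alone at 7544 CPM or more in each library. The part of the dissociation of tissue in the levels of the feedback genes was not tested.

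**Figure D4:**
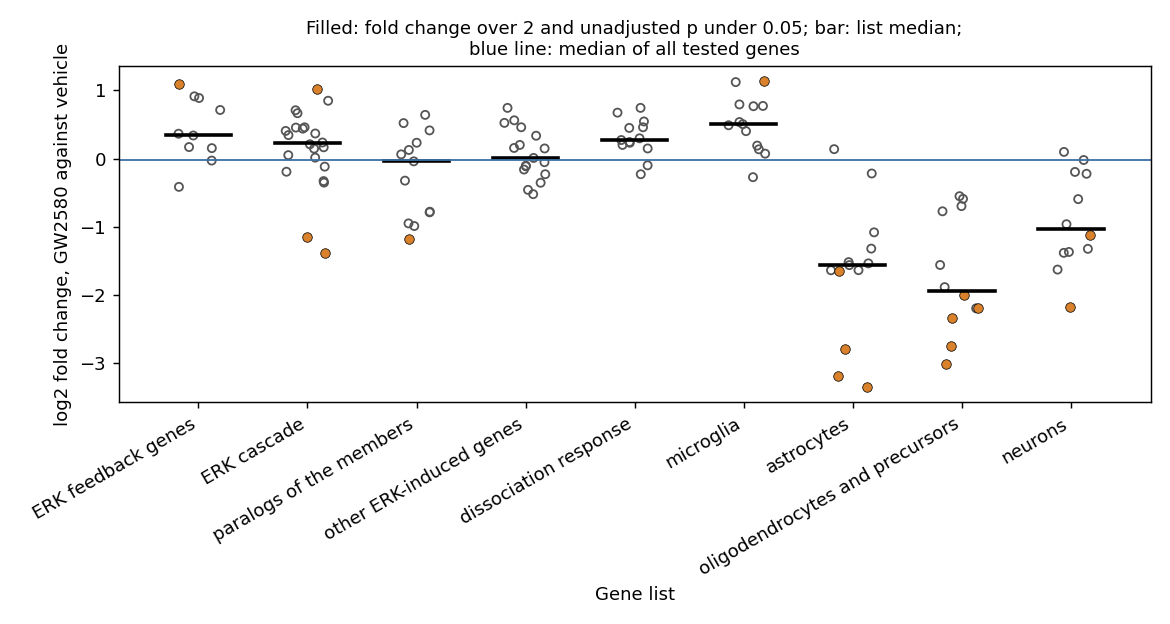
Log2 fold change, GW2580 against Vehicle, of each tested gene (points) in 9 gene lists, with called genes filled, the list median as a black bar and the median of all tested genes as a blue line. The ERK feedback genes have a median of 0.35 and 1 called gene, and the marker lists of astrocytes and oligodendrocytes have medians of -1.56 and -1.94.

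The strip plot of gene lists also shows the markers of the cells in and around the preparation. Of the 15 microglial markers 13 were tested and 1 was called, Cx3cr1, higher (1.14, unadjusted p = 0.0278, adjusted p = 0.298 by edgeR), with a median of 0.50. Astrocyte markers summed to 257 to 3582 CPM with Vehicle and 259 to 829 CPM with GW2580, and 4 of 13 were called lower, among them the most abundant, Aldoc. Markers of oligodendrocytes and their precursors summed to 181 to 18018 CPM and 202 to 1822 CPM, with 5 of 12 tested called lower, Mbp and Mobp among them. Neuronal markers summed to 74.1 to 673 CPM and 76.1 to 224 CPM, with 2 of 12 called lower (median -1.04). In all 3 lists the highest sum was that of Vehicle 2 and the next in the Vehicle group that of Vehicle 5.

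Markers of monocytes and granulocytes, led by Ngp, S100a9 and S100a8, summed to 524 (Vehicle 5) to 26903 CPM with Vehicle and 582 (GW2580 3) to 11309 CPM with GW2580, with 1 of 12 called lower and a median of -1.01. The libraries in which Etv5 was highest with GW2580 or highest with Vehicle thus had the lowest sums of these markers in their group. Markers of border macrophages summed to 93.9 to 178 CPM and 69.0 to 301 CPM (GW2580 3), with a median of 0.91 over the 7 tested. Mrc1 was called higher (1.10), 4 of the 7 had a log2 fold change above 0 and 3 below, and F13a1 (1.10), Clec12a (-0.05) and Cbr2 (-0.78), the most abundant, were not called. Markers of endothelial and mural cells summed to 101 to 295 CPM, highest in Vehicle 5, and 119 to 157 CPM, with 0 of 11 tested called and a median of -0.06, and the endothelial marker Cldn5 was listed at 0 in all libraries. Pecam1 and Kdr, which mark the same cells, were counted in each library (12.5 to 39.2 and 12.4 to 26.4 CPM), so the 0 of Cldn5 is not read as its level. With the mean of the glial and neuronal lists as a covariate, 2 feedback genes were called higher, Etv5 and Spred1, where 4.29% of all genes were, with Spred1 at a log2 fold change of 1.04. The part of the other cells in the levels of the feedback genes was not tested beyond that fit.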

How the data were processed

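RNA of CD11b-selected brain microglia from 10 mice was measured by paired-end sequencing. The authors aligned reads to GRCm38 and, per the file headers, counted fragments on RefSeq exons with featureCounts 1.6.3, without regard to strand, and deposited raw counts per gene with gene lengths. Ambiguous and multiply aligned fragments were left out by that counting. Gene symbols, coordinates and promoters came from RefSeq tables (GRCm38.p6), which named 46029 of 46152 genes.

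From the deposited counts, a gene was tested if it exceeded 1 CPM in 3 or more libraries. Library sizes were scaled by TMM. The quasi-likelihood test of edgeR 4.0.16 (R 4.3.3) compared treatments with no further term. The thresholds of the study (over 2-fold, unadjusted p under 0.05) made a call, and p-values were also adjusted by Benjamini-Hochberg over all tested genes. Standard errors are |log2 fold change| over the root of F. Exact permutation tests were two-sided and enumerated all 252 assignments of 5 of 10 libraries. Counting error is included in the spread between mice, and each library is a separate mouse. The edgeR tests set a difference against that spread after drawing each gene's value towards a trend over all genes. The exact permutation test uses the gene's own values alone. No molecular identifiers were used, so fragments may be copies of one molecule.

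Alternatives were DESeq2 1.42.0, other edgeR tests, limma-voom (limma 3.58.1), other scalings and filters, sex, replicate number, marker and no-exon covariates and leaving out libraries. The genes, lists and tests were chosen with earlier results of these data known, and the fit without Vehicle 5 and GW2580 3, like the CArG search, was added after seeing the data. Genes named from the other lists are the 3 of highest mean CPM in each, and in the pathway lists also those called, except for an item that is not reported here. Patterns of other genes were compared with the member of highest mean CPM, not scaled to gene length, in each role (phosphatase, Sprouty or Spred, transcription factor or cyclin). Single genes outside that rule (Aif1, Trem2, Cldn5, Hspa1a, Hspa1b, Cx3cr1, Mrc1) were named after their values were seen. Tables were made with Python 3.11.15, pandas 2.3.3 and scipy 1.17.1, and figures with matplotlib 3.10.9.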

Additional observations from a re-analysis of the deposited data

Results flagged for a closer look

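Within each group of 5 libraries, the highest and the lowest value of each feedback gene was compared with the others by Dixon's test, and 5 of 20 groups held a library past its critical value, where chance gives about 1 in 20. Vehicle 5 was far above the other Vehicle libraries for Dusp5 (81.4 CPM, against 10.4 to 17.4), for Spry1 (118 CPM, against 30.9 to 38.9) and for Etv5 (117 CPM, against 49.3 to 65.3). GW2580 3 was far above the other GW2580 libraries for Dusp6 (1249 CPM, against 265 to 484) and for Spry1 (121 CPM, against 29.7 to 51.3). The 5 departures thus came from 2 libraries, and all were upward. The CPM were scaled by TMM, and the factor of GW2580 3 was the lowest (0.691), which raises its values. Dixon's test was not run with library size alone. The test was run on CPM and not on log values, a scale on which low values are harder to flag. The low values of Vehicle 5 for Spry4 (0.56 CPM) and Ccnd1 (3.71 CPM) were not flagged on it.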

How the results depend on the processing

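Over the 29 alternatives, 0 feedback genes were called lower in any, and the number called higher ran from 0 to 4 against 1. Beside each number stands the share of all genes called higher in the same fit. It was 2 with library size alone (7.47%), 2 with the glial and neuronal markers as covariate (4.29%), 3 with the percent of records on no exon as covariate (2.48%), 0 with limma-voom (4.95%), 3 without Vehicle 2 and Vehicle 5 (5.09%), 4 without Vehicle 5 and GW2580 5 (7.08%), 0 without Vehicle 5 and GW2580 3 (4.6%), 2 in male mice alone (4.89%) and 0 in female mice alone (1.03%). It was 2 at an unadjusted p under 0.05 (6.61%) and 0 at an adjusted p under 0.05 (0%), whatever the fold. Leaving out 1 library at a time gave 0 to 3, with 0 without Vehicle 1, 2, 3 or 4 (4.3, 2.99, 3.95 and 3.95%) or GW2580 3 (3.54%), 3 without Vehicle 5 (6.18%), and 2 without GW2580 2 (4.19%) or GW2580 5 (4.39%). The cause was not tested.

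The median log2 fold change of the 10 genes moved from 0.35 to 0.62 with library size alone, where the median of all genes moved from -0.03 to 0.23, and to 0.68 with the percent on no exon as covariate. It was 0.60 with limma-voom, 0.57 without Vehicle 5 and 0.56 without Vehicle 5 and GW2580 5, and leaving out 1 library at a time gave 0.31 to 0.57. With library size alone 2123 genes were called higher and 875 lower, against 1141 and 1905 with TMM. The number of genes called in all, 3046, was 4802 with no filter, 1181 with the percent on no exon as covariate, 6057 without Vehicle 5 and GW2580 5, 4621 in male and 794 in female mice alone and 0 at an adjusted p under 0.05. Leaving out 1 library at a time gave 1684 (without GW2580 1) to 4848 (without GW2580 5).

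Replicate numbers did not pair the mice. The correlations of same-numbered libraries ran from -0.39 to 0.13, and 0 of 5 correlated best with its own number. With the replicate number as a block, 0 feedback genes were called (3.71% of all genes were called higher), 2554 genes were called in all, the median of the 10 genes was 0.62 and the log2 fold change of Etv5 was 0.96.

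Etv5 kept its sign in all 29 alternatives, from 0.66 to 1.45, and lost its call in 9. Dusp4 changed sign in 12. It was 0.21 with library size alone, 0.058 with upper quartile scaling, 0.016 with limma-voom, 0.0021 with sex as covariate, 0.016 with the replicate block, 0.16 with the glial markers and 0.31 with the percent on no exon as covariate, 0.29 without Vehicle 2 and Vehicle 5 and 0.18 in female mice alone. With 1 library left out it ran from -0.18 to 0.18. Dusp5 was -0.24 in female mice alone and ran from -0.17 to 1.20 with 1 library left out. Spry1 was -0.022 in female mice alone and ran from -0.29 to 0.73. Spry4 was -0.087 without Vehicle 5 and GW2580 5 and -0.079 in male mice alone. The low counts of Dusp4, Spry2 and Spry4 limit what could be detected in them.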
